A study of Homo sapiens with 2 samples.

Results

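The miR-30 family was examined in small extracellular vesicles (sEVs), the nanometre-sized membrane vesicles that cells release into their medium, of a pair of human mammary cell lines. The 5 members are the 5p arms hsa-miR-30a-5p, hsa-miR-30b-5p, hsa-miR-30c-5p, hsa-miR-30d-5p and hsa-miR-30e-5p, taken by name from the 1315 mature miRNAs listed because they share the miR-30 seed. Small RNAs were sequenced from the sEVs of MCF-10A, an epithelial line of non-cancerous breast origin, and of MDA-MB-231, a line of triple-negative breast cancer. These are 1 library each, called here the MCF-10A library and the MDA-MB-231 library. Both samples carry the genotype label WT and the cell type label epithelial cell, and no treatment or time point is given. Conditioned medium was collected from nearly confluent cultures, cleared by low-speed spins and ultracentrifuged to pellet the vesicles, with no further purification described in the labels. The growth medium is given in the labels of both samples, but for MDA-MB-231 cells. The study asked how sEVs from tumours act on the browning of white adipose tissue and on fat loss, and used sequencing of sEV miRNAs to find candidates. Its text refers the miRNA sequencing of sEVs to an earlier data set, and whether that is the same as these libraries is not stated. With 1 library per cell line no difference has a replicate check, so no p-value is given and every interval covers counting error only.

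MicroRNAs are short RNAs that guide Argonaute proteins to messenger RNAs, mainly by pairing of the seed, bases 2 to 8 of the mature strand. Members of one seed family can therefore act on many of the same messages, and the 3′ part of each member adds selectivity. The miR-30 family is made in most epithelial tissues. It is known for repressing SNAI1, a transcription factor of the epithelial-mesenchymal transition, for restraining self-renewal of breast tumour-initiating cells, and for promoting the differentiation of adipocytes.

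The mature sequences show what the members share and where they part. RefSeq sequences (GRCh38.p14) were matched by name for 3 of the 5 members, miR-30a-5p, miR-30c-5p and miR-30e-5p, and are printed 5′ to 3′ with the seed in capitals.
hsa-miR-30a-5p: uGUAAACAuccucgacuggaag
hsa-miR-30c-5p: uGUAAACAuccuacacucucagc
hsa-miR-30e-5p: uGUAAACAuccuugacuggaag
The seed GUAAACA was identical in the 3, and the first 12 bases were identical as well. Among the 2370 mature names of the RefSeq table, only these 3 were found with this seed. The search did not return miR-30b-5p or miR-30d-5p, so it cannot show that no miRNA outside the family has the seed. Counting from 1 at the 5′ end, miR-30a-5p and miR-30e-5p (22 bases each) differed by the single substitution C13U. miR-30a-5p and miR-30c-5p (23 bases) differed over the first 22 bases by 5 substitutions, C13A, G14C, G18C, G19U and A20C. A sequencing error or an allowed mismatch at a single base could therefore exchange reads between miR-30a-5p and miR-30e-5p. The number of mismatches allowed is not given in the sources used here. The sequences of miR-30b-5p and miR-30d-5p were not compared, so the bases that separate them from the other members are not given. Exchange of reads with either of them was not tested.

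miR-30c-5p is encoded at more than one place in the genome, so its count sums the output of separate hairpins. On chromosome 1, plus strand, the MIR30E hairpin (40754355 to 40754446) and the MIR30C1 hairpin (40757284 to 40757372) lie in introns of NFYC, which encodes a subunit of the transcription factor NF-Y. On chromosome 6, minus strand, the MIR30C2 hairpin (71376960 to 71377031) and the MIR30A hairpin (71403551 to 71403621) lie in introns of the long non-coding RNA genes LINC00472 and AL136164.2 (GRCh38, GENCODE v29). None of these 4 hairpins overlapped an annotated exon of its host gene, and their positions were the same in RefSeq. MIR30B and MIR30D are neighbours that are known to be made from a common primary transcript.

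The deposited values are raw counts, with totals of 11529 in the MCF-10A library and 18397 in the MDA-MB-231 library. miR-182-5p alone took 46.6% and 51.0% of them, and the 10 most abundant miRNAs of each library took 73.8% and 83.7%. A share of the library total is therefore set largely by a few other miRNAs. For this reason each ratio between libraries was also computed under 4 other scalings. These multiplied each ratio by 1.09 (total without miR-182-5p), 1.60 (median-of-ratios, which centres the middle miRNA), 1.65 (TMM, a trimmed mean of log ratios) or 1.66 (total without the leading 10 miRNAs of each library). The median-of-ratios factors, set over the 258 miRNAs with a count in both libraries, came out equal for the libraries. Under this scaling each ratio is therefore that of the raw counts, with no correction for depth. Comparisons within the family do not depend on the scaling.

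The family made up a small share of both libraries. The pooled members had 140 counts in the MCF-10A library, a share of 1.21% (95% Wilson interval 1.03 to 1.43%), and 107 counts in the MDA-MB-231 library, a share of 0.582% (0.482 to 0.702%). The ratio of the MDA-MB-231 share to the MCF-10A share was 0.479, with an exact 95% interval of 0.369 to 0.620. The pooled family was thus lower in the MDA-MB-231 library by more than counting error when counts were scaled to the library total. Under TMM the ratio was 0.792 (0.610 to 1.03), under median-of-ratios 0.764 (0.589 to 0.990) and without the 10 most abundant miRNAs 0.796 (0.613 to 1.03). The direction did not change under these scalings, but the size shrank and 2 of the 3 intervals included 1. Vesicles that carry less of the family and fewer vesicles that carry it cannot be told apart in a bulk library.

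miR-30a-5p, known to repress the autophagy gene BECN1, had 45 counts in the MCF-10A library (0.390% of the library, 0.292 to 0.522%) and 29 counts in the MDA-MB-231 library (0.158%, 0.110 to 0.226%). Its ratio of shares was 0.404 (0.244 to 0.658), and at an equal share 71.8 counts would have been expected in the MDA-MB-231 library. With TMM the ratio was 0.668 (0.404 to 1.09), with median-of-ratios 0.644 (0.390 to 1.05) and without the 10 most abundant miRNAs 0.671 (0.406 to 1.09), so that under these 3 scalings the interval included 1. It was the leading member in the MCF-10A library and ranked 23 of 1315 there, against 38 in the MDA-MB-231 library.

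miR-30b-5p, which together with miR-30d-5p is known to repress the glycosyltransferase gene GALNT7 in melanoma, had 19 counts in the MCF-10A library (0.165%, 0.106 to 0.257%) and 2 counts in the MDA-MB-231 library (0.0109%, 0.00298 to 0.0396%). The ratio of shares was 0.0660 (0.00745 to 0.273), and an equal share would have given 30.3 counts in the MDA-MB-231 library. It rested on 2 counts, so the size is poorly fixed, yet the upper limit was below 0.5 under every scaling, the highest being 0.454. In the MDA-MB-231 library it ranked 189, tied among 80 miRNAs with the same count, against 54 in the MCF-10A library.

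miR-30c-5p, studied in breast cancer for its repression of the cytoskeletal gene TWF1, had 27 counts in the MCF-10A library (0.234%, 0.161 to 0.341%) and 14 in the MDA-MB-231 library (0.0761%, 0.0453 to 0.128%). The ratio of shares was 0.325 (0.157 to 0.642). It was 0.537 (0.260 to 1.06) with TMM, 0.519 (0.251 to 1.02) with median-of-ratios and 0.540 (0.262 to 1.07) without the 10 most abundant miRNAs, and these intervals included 1. It ranked 43 and 65, a place in the middle of the family in both libraries.

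miR-30d-5p, known as a miRNA that the endometrium secretes, had the ratio nearest to 1 under scaling to the library total. It had 38 counts in the MCF-10A library (0.330%, 0.240 to 0.452%) and 55 in the MDA-MB-231 library (0.299%, 0.230 to 0.389%). The ratio of shares was 0.907 (0.589 to 1.41), and it turned to 1.45 (0.940 to 2.25) under median-of-ratios, 1.5 (0.974 to 2.33) under TMM and 1.51 (0.979 to 2.34) without the 10 most abundant miRNAs. All of these intervals included 1, so no difference was detectable at this depth and the data leave room for a change in either direction. It ranked 30 in the MCF-10A library and 18 in the MDA-MB-231 library.

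miR-30e-5p was low in both libraries, with 11 counts in the MCF-10A library (0.0954%, 0.0533 to 0.171%) and 7 in the MDA-MB-231 library (0.0380%, 0.0184 to 0.0785%). The ratio of shares was 0.399 with an interval of 0.131 to 1.13 that included 1. Taken as a sum, which an exchange of reads between them would leave unchanged, miR-30a-5p and miR-30e-5p had 56 counts in the MCF-10A library and 36 in the MDA-MB-231 library, a ratio of 0.403 (0.257 to 0.623). For this sum the ratio was 0.666 (0.426 to 1.03) with TMM, 0.643 (0.411 to 0.995) with median-of-ratios and 0.669 (0.428 to 1.04) without the 10 most abundant miRNAs. With miR-30d-5p added, whose sequence was not compared, the sum had 94 and 91 counts, a ratio of 0.607 (0.450 to 0.818). That ratio was 1.00 (0.743 to 1.35) with TMM, 0.968 (0.718 to 1.31) with median-of-ratios and 1.01 (0.747 to 1.36) without the 10 most abundant miRNAs.

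**Figure D1:**
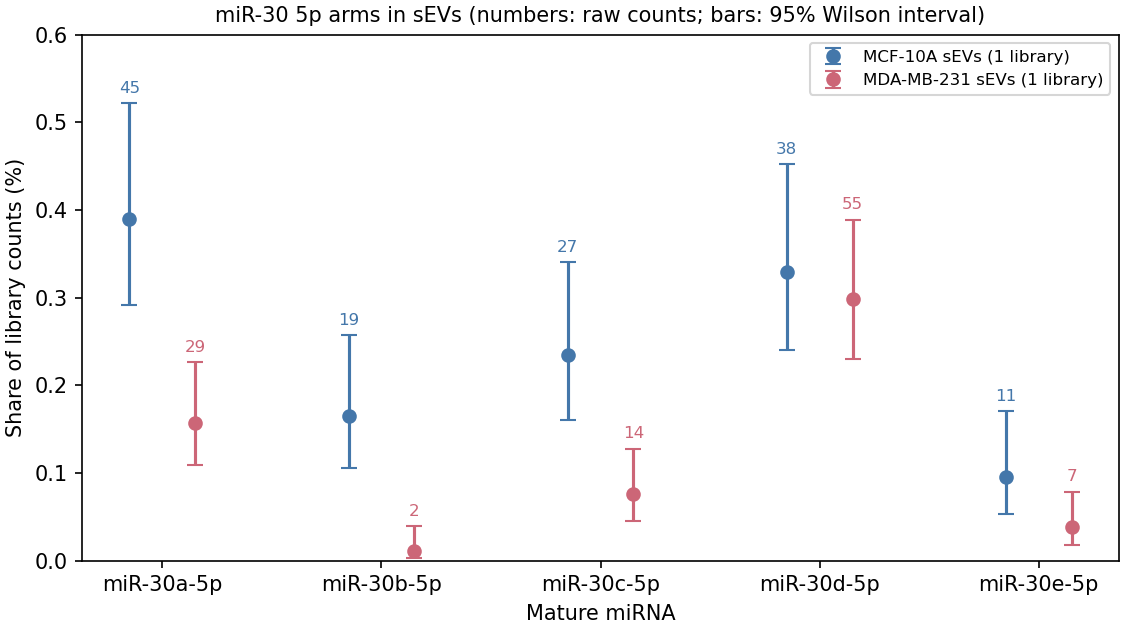
Share of library counts (percent, vertical axis) of each miR-30 5p arm in the MCF-10A and MDA-MB-231 libraries of sEVs (1 each), with 95% Wilson intervals and the raw count above each point. The intervals of miR-30d-5p (38 and 55 counts) overlap over most of their length, whereas those of miR-30b-5p (19 and 2 counts) are far apart.

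The levels fell in a different order in the 2 libraries. In the MCF-10A library the order was miR-30a-5p, miR-30d-5p, miR-30c-5p, miR-30b-5p and miR-30e-5p, and no neighbours in it differed beyond counting error. The ratio of the first to the next was 1.18 (0.752 to 1.87), while the first and the last, miR-30a-5p and miR-30e-5p, differed by 4.09 (2.08 to 8.77). In the MDA-MB-231 library miR-30d-5p came first, at 1.90 times the count of miR-30a-5p (1.19 to 3.08), and miR-30a-5p had 2.07 times the count of miR-30c-5p (1.06 to 4.24). Below these, miR-30c-5p over miR-30e-5p (2.00, 0.755 to 5.86) and miR-30e-5p over miR-30b-5p (3.50, 0.666 to 34.5) did not differ beyond counting error. miR-30b-5p stood last there and miR-30d-5p first, whereas in the MCF-10A library miR-30d-5p and miR-30a-5p could not be ordered.

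Within the family, miR-30d-5p took a larger part of the counts in the MDA-MB-231 library and miR-30b-5p a smaller one. miR-30d-5p formed 27.1% of the family's counts in the MCF-10A library (95% Wilson interval 20.5 to 35.0%) and 51.4% in the MDA-MB-231 library (42.0 to 60.7%). Against the other 4 members its odds ratio between the libraries was 2.83, with an exact 95% interval of 1.61 to 5.00. miR-30b-5p formed 13.6% (8.86 to 20.2%) and 1.87% (0.514 to 6.56%), with an odds ratio of 0.122 (0.0135 to 0.525). For the remaining members the intervals included 1. miR-30a-5p formed 32.1% and 27.1% of the family (odds ratio 0.786, 0.432 to 1.41). miR-30c-5p formed 19.3% and 13.1% (0.631, 0.288 to 1.33). miR-30e-5p formed 7.86% and 6.54% (0.822, 0.260 to 2.42). These odds ratios share their counts, so a gain of one member is in part a loss of the others. An exchange of reads between miR-30d-5p and another member would also change them and was not tested.

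Compared in pairs, miR-30d-5p and miR-30b-5p were farthest apart. In the MCF-10A library the count of miR-30b-5p was 0.5 times that of miR-30d-5p (0.272 to 0.889), and in the MDA-MB-231 library it was 0.0364 times (0.00430 to 0.138). The odds ratio of this pair was 0.0742 (0.00793 to 0.336), although both are made from neighbouring hairpins. Of the 10 pairs of members, 4 had an odds ratio whose interval left out 1. Each of the 4 held miR-30b-5p or miR-30d-5p, as do most of the 10 pairs. The other 3 were miR-30a-5p over miR-30b-5p (6.03, 1.29 to 57.3), miR-30a-5p over miR-30d-5p (0.447, 0.227 to 0.869) and miR-30c-5p over miR-30d-5p (0.361, 0.153 to 0.820). The interval included 1 for miR-30b-5p with miR-30c-5p (0.0206 to 1.07) and with miR-30e-5p (0.0151 to 1.13). It also included 1 for miR-30d-5p with miR-30e-5p (0.723 to 7.54). The intervals of pairs are not adjusted for the number of pairs. The pair miR-30a-5p over miR-30e-5p, whose sequences differ by a single base, kept nearly the same ratio, 4.09 in the MCF-10A library and 4.14 in the MDA-MB-231 library (odds ratio 1.01, 0.315 to 3.46). The neighbours in NFYC, miR-30c-5p and miR-30e-5p, had ratios of 2.45 and 2.00 (0.818, 0.227 to 3.08), although miR-30c-5p also comes from chromosome 6.

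The 3p arms, the strands that are mostly discarded when the hairpins are processed, were close to the limit of detection. Of the 6 3p arms of these hairpins, 5 were listed, and miR-30c-1-3p was not analysed here. miR-30e-3p had 2 counts in the MCF-10A library and 3 in the MDA-MB-231 library, miR-30a-3p and miR-30c-2-3p had 1 count in each, miR-30d-3p had 0 and 1, and miR-30b-3p had 0 in both. A count of 0 was read as allowing up to 3 counts, a share of 0.0260% in the MCF-10A library and 0.0163% in the MDA-MB-231 library. In all, the 3p arms had 4 and 6 counts, so the 5p arms were 35.0 times (13.4 to 130.2) and 17.8 times (7.93 to 49.7) as abundant. The odds ratio of 5p against 3p between the libraries was 0.511 (0.103 to 2.22), so the arms could not be said to shift. At 0 to 3 counts each, the 3p arms do not bear on the difference in miR-30b-5p.

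**Figure D2:**
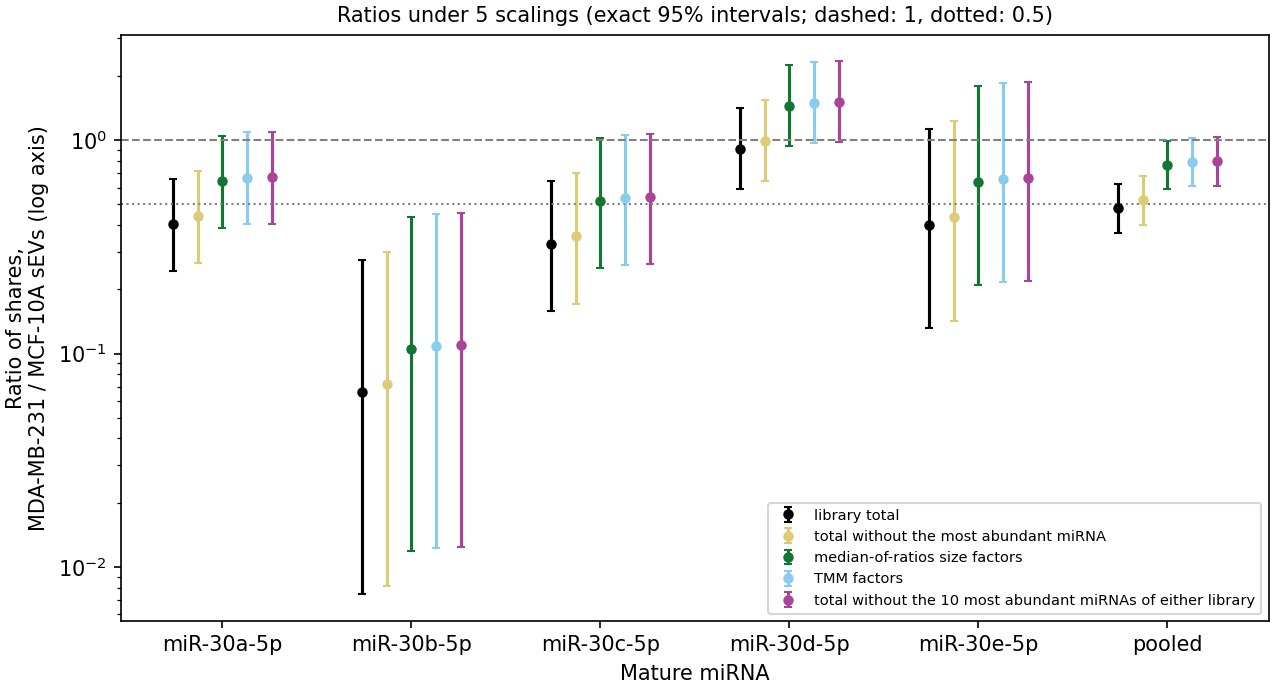
Ratio of shares, MDA-MB-231 over MCF-10A (log axis), of each member and the pooled family under 5 scalings, with exact 95% intervals, a dashed line at 1 and a dotted line at 0.5. The intervals of miR-30b-5p lie below 0.5 under every scaling, whereas the point of miR-30d-5p moves from 0.907 to 1.51.

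Of all miRNAs listed, 109 had at least 10 counts in 1 library, and all 5 members were among them. miR-30b-5p and miR-30e-5p passed this minimum only through the MCF-10A library, the library in which they were higher. With a pseudocount of 1 CPM (the count scaled to the library total), 4 of the 5 members were at least 2-fold lower in the MDA-MB-231 library, against 41.3% of the 109 miRNAs, and none was at least 2-fold higher, against 15.6%. With TMM, 1 of the 5, miR-30b-5p, was at least 2-fold lower, against 25.7%. Because miR-30b-5p and miR-30e-5p are among the members called and could only be lower, these counts are a description and support nothing. The median log2 ratio of the members was −1.32, against −0.72 over the 109 miRNAs. The median of the members is the value of miR-30e-5p, so the same limit holds for it. Under TMM these medians were −0.60 and 0.0052, so scaling shifted both medians alike. From the lowest ratio upwards miR-30b-5p took place 8 of 109, miR-30c-5p 31, miR-30e-5p 36, miR-30a-5p 38 and miR-30d-5p 72. All but miR-30d-5p lay below the middle of the order. The places of miR-30b-5p and miR-30e-5p are bounded by the count minimum in the same way and support nothing.

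**Figure D3:**
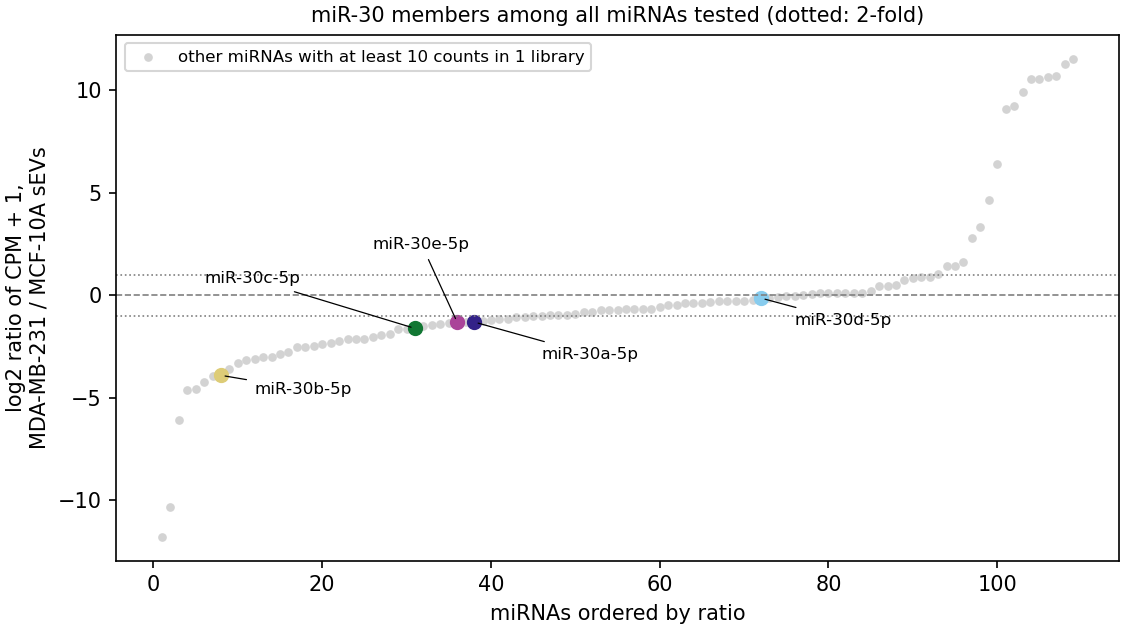
log2 ratio of CPM plus 1, MDA-MB-231 over MCF-10A, of the 109 miRNAs that reached 10 counts in a library, ordered from lowest to highest, with the miR-30 members in colour and dotted lines at 2-fold. miR-30b-5p stands at place 8 and miR-30d-5p at place 72, and the other 3 members lie between places 31 and 38. miR-30b-5p and miR-30e-5p reached 10 counts only in the MCF-10A library, which bounds their places.

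Beside other conserved families, the ratio of the pooled miR-30 members lay nearer to that of let-7 than to that of the miR-10 families. The 9 miRNAs of the let-7 and miR-98 family, which also restrains self-renewal, had 1217 counts in the MCF-10A library and 1044 in the MDA-MB-231 library, a ratio of shares of 0.538 (0.494 to 0.584), or 0.889 (0.817 to 0.966) with TMM. The odds ratio of let-7 against miR-30 was 1.12 (0.854 to 1.48), so no difference between the families was detectable. The 7 miRNAs of the miR-10, miR-99/100 and miR-125 families had 181 and 207 counts and a ratio of 0.717 (0.584 to 0.880), which turned to 1.18 (0.966 to 1.45) with TMM, 1.14 (0.932 to 1.40) with median-of-ratios and 1.19 (0.970 to 1.46) without the 10 most abundant miRNAs. Against miR-30 their odds ratio, which no scaling changes, was 1.5 (1.07 to 2.09), that is, miR-30 was lower relative to them in the MDA-MB-231 library. Outside the family, the 5 miRNAs with a log2 ratio nearest to the pooled −1.06, among 60 with at least 10 counts in both libraries, were miR-7704 (−1.08), let-7f-5p (−1.04), miR-423-5p (−1.02), miR-27b-3p (−0.98) and miR-148a-3p (−1.16). This likeness rests on 1 ratio per miRNA.

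The summed level of markers of the labelled epithelial cell type was also lower in the MDA-MB-231 library. Of 7 epithelial miRNAs, 6 had a count in each library, and their summed share was 0.685% in the MCF-10A library and 0.114% in the MDA-MB-231 library. miR-205-5p, a defining miRNA of basal epithelium, had 41 counts and 0 counts, and miR-200c-3p, which represses the ZEB factors, had 19 and 3. miR-200a-3p (8 and 1) and miR-203a-3p (7 and 4) had fewer counts in the MDA-MB-231 library too, and miR-200b-3p (3 and 9), miR-141-3p (0 and 2) and miR-429 (1 and 2) had more. miR-205-5p was thus not detected at this depth in the MDA-MB-231 library, which carries the same epithelial label. Among 8 serum and blood miRNAs, 6 and 7 had a count, and their summed share was 12.3% in the MCF-10A library and 20.3% in the MDA-MB-231 library, nearly all of it miR-451a of erythroid cells. Without miR-451a the shares were 0.538% and 0.837%, and miR-150-5p was at 0 in both. The part of these differences in the levels of miR-30 was not tested.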

How the data were processed

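Small RNA libraries of the sEVs of MCF-10A and of MDA-MB-231 (1 each) were identified by their cell line label. The authors deposited raw counts per mature miRNA, and beside them CPM, which were found to be the counts rescaled by the library total. Per the submitters' processing notes, FastQC, cutadapt, Bowtie and edgeR were used with the build hg38. Their settings, the miRNA annotation and the treatment of reads matching several miRNAs are not given in the sources used here. Total counts were 11529 and 18397, so 1 count is 86.7 CPM or 54.4 CPM.

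The miRNAs named are the 5 members, the 3p arms of their hairpins, members of 4 other lists, the most abundant miRNA, and the 5 miRNAs nearest to the pooled ratio. The miRNAs that the closing section names only in its account of clustered pairs were chosen after their values were seen. Members, lists and tests were chosen with earlier results of these data known. The sum of miR-30a-5p and miR-30e-5p, this sum with miR-30d-5p, and the 10 pairs of members were added after their values were seen.

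Shares carry 95% Wilson intervals, ratios of counts exact conditional binomial intervals, and odds ratios exact conditional intervals, computed with scipy 1.17.1 in Python 3.11.15. Because PCR copies cannot be recognised without molecular identifiers, intervals cover counting error only. For miR-30b-5p, planned with interval limits alone because of its 2 counts, the ratio is also printed. TMM factors came from edgeR 4.0.16. The statistics were tested on data simulated with counting error only, the error that the intervals assume. That test does not cover PCR copies or the spread between libraries. Sequences and positions came from RefSeq (GRCh38.p14) and GENCODE v29 (GRCh38).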

Additional observations from a re-analysis of the deposited data

How the results depend on the processing

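The pooled results moved with the scaling. The pooled share in the MCF-10A and MDA-MB-231 libraries was 4.79% and 3.81% of a total that leaves out the 10 most abundant miRNAs, and 2.27% and 1.19% of the total without the most abundant miRNA. The pooled ratio of shares, 0.479, was 0.792 with TMM factors, 0.764 with median-of-ratios size factors, 0.796 without the 10 most abundant miRNAs and 0.319 leaving out miR-30d-5p. Leaving out another member gave 0.486 to 0.544. The number of members at least 2-fold lower was 4, against 41.3% of all miRNAs tested. It was 1 with TMM factors, median-of-ratios size factors or the total without the 10 most abundant miRNAs, against 25.7% under each. At a 4-fold threshold it was 1, against 23.9%. With at least 50 counts in 1 library it was 0 of the 1 member left, against 40%. It was 4 with either pseudocount (0.1 or 10 CPM), against 41.3%, and with no count minimum, against 42.1%. A 1.5-fold threshold also gave 4, against 54.1%. No member was higher past the threshold under any of these settings, against 11.9% (4-fold) to 35.4% (no count minimum) of the miRNAs. Of 20 member ratios recomputed under other scalings, 15 stayed within the interval of the ratio of shares. Adding the 3p arms kept all 10 shares of the family within their intervals, and the 5p to 3p ratios ran from 10.4 to 64.5 when 1 hairpin's member was left out. No paired analysis was possible because each cell line has 1 library. Depth is a further limit, since 2 counts decide the level of miR-30b-5p in MDA-MB-231 sEVs and no 3p arm exceeds 3 counts. Exchange of reads between members of like sequence was not tested.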

Other observations

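How clustered miRNAs part in these libraries was looked at after the values of miR-30b-5p and miR-30d-5p were seen, so the values are a description. Hairpins within 10 kb on a strand were paired by their more abundant arm, keeping arms of a single locus that reached 10 counts in a library, which gave 10 pairs. miR-30b-5p (19 and 2 counts), miR-96-5p (38 and 7) and miR-106b-3p (16 and 5) passed this minimum only through the MCF-10A library, where they had to be higher. They are in 4 of the 5 pairs whose interval left out 1, so that number supports nothing. The odds ratio of miR-30b-5p and miR-30d-5p was 13.5-fold away from 1 (2.97 to 126.1). miR-182-5p lay 9.48-fold away from 1 with miR-96-5p (4.18 to 25.2) and 8.73-fold with miR-183-5p (4.76 to 17.3), and these intervals overlap the former. miR-183-5p had at least 10 counts in both libraries (65 and 13). The interval left out 1 also for miR-106b-3p with miR-93-5p (5.33-fold, 1.38 to 24.1) and with miR-25-3p (4.65-fold, 1.46 to 17.7). These pairs depend on the arm taken. The other arm of that hairpin, miR-106b-5p, had 1 count in the MCF-10A library and 16 in the MDA-MB-231 library, the opposite direction. For the remaining pairs the interval included 1. Inside the clusters above, miR-25-3p with miR-93-5p (1.17-fold) and miR-96-5p with miR-183-5p (1.08-fold) were close to 1. So were miR-99a-5p with let-7c-5p (1.18-fold) and miR-17-5p with miR-20a-5p (1.14-fold). miR-27a-3p with miR-23a-3p (9 and 3 counts in the MDA-MB-231 library) lay 1.52-fold away. Pairs of 1 cluster share counts.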
